A study of Mus musculus with 8 samples.

Results

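The genes described here are 40 genes of DNA replication and S phase, chosen by name for their roles in licensing origins, building and running the replication fork, and supplying nucleotides. All 40 were found among the 24421 gene symbols of both count tables, and all 40 passed the filter on low counts in both comparisons. RNA was sequenced from mouse embryonic stem cells (mESCs) kept for 3 to 4 passages in 2i/LIF, in which mESCs stay naive. Ubc9-depleted cells, from line v6.5, had 72 hours of DOX (doxycycline) and were set against Ubc9-WT controls from that line. Ubc9 is the E2 conjugating enzyme of the SUMO pathway, which links SUMO to other proteins. H1 TKO cells lack the linker histones H1.2, H1.3 and H1.4 and were set against control cells titled H1_WT, and both of these came from an earlier publication. Each of the 4 groups had 2 libraries. It is not stated in the labels whether Ubc9 controls also received DOX, how Ubc9 was depleted, how many clones the H1 lines represent, or whether libraries of 1 group are separate cultures, so p-values measure the spread between these libraries, which may be technical.

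Before S phase the origin recognition complex (ORC) marks origins, and Cdc6 and Cdt1 load the ring-shaped MCM helicase onto them. Cyclin E and other kinase activities then let Mcm10, Cdc45 and the GINS complex turn the loaded ring into an active helicase, behind which DNA polymerases, the sliding clamp Pcna and its loader copy both strands. Many of these genes are transcribed under E2F factors, which are held in check by the RB family, and mESCs are known for a short G1 phase and a high share of cells in S phase. In bulk RNA, fewer cells in S phase and less of an RNA per cell cannot be told apart.

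The E2F octamer was searched in the RefSeq promoter windows (GRCm38.p6, 250 bases before to 50 after the transcription start site), because E2F sites are the best known shared element of these promoters. The letters TTTCCCGC, TTTCGCGC, TTTGCCGC and TTTGGCGC were searched on both strands. A window was given for 32 members, and 13 of them (40.6%) held at least 1 octamer, against 704 of 27025 genes (2.60%) and 285 of 5487 other genes at the members' expression level in the Ubc9 comparison (5.19%). A match is a description of the letters and not a binding site. Ccne2, Gins1, Gins2, Gins4, Mcm4, Pole, Prim2 and Rfc2 had no window. The windows of 7 members that were lower after Ubc9 depletion held an octamer. The first match of each is shown with its flanks, 5′ to 3′ on the gene's strand, with the octamer or its reverse complement in capitals.
Cdc6, chr11:98908003-98908030, plus strand: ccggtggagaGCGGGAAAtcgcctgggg
Cdt1, chr8:122568037-122568064, plus strand: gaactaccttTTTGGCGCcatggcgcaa
Mcm3, chr1:20820276-20820303, minus strand: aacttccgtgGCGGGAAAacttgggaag
Mcm6, chr1:128359798-128359825, minus strand: ggcgtatgctTTTGGCGCgaaaagtgcg
Gins3, chr8:95633508-95633535, plus strand: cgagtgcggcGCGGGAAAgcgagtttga
Pole2, chr12:69228163-69228190, minus strand: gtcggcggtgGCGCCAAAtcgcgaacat
Lig1, chr7:13278842-13278869, plus strand: gccaaagtgcGCGCGAAAtctgtgtggc

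The windows of 6 members whose change after Ubc9 depletion did not pass the test also held an octamer, shown in the same way. They include Orc1 and Orc3 of the origin recognition complex.
Orc1, chr4:108579417-108579444, plus strand: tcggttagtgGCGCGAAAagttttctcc
Orc3, chr4:34614966-34614993, minus strand: catgcctcccTTTCCCGCacgccccgcc
Mcm5, chr8:75109346-75109373, plus strand: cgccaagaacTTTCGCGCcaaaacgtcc
Mcm7, chr5:138172031-138172058, minus strand: atttcgaaccGCGGGAAAcagggtgtcc
Pola1, chrX:93632276-93632303, minus strand: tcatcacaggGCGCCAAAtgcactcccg
Rfc3, chr5:151651201-151651228, minus strand: cgtcgcacgcTTTCGCGCtcgcgggaaa

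Among members with a window, 7 of 16 that were lower after Ubc9 depletion (43.8%) and 6 of 16 that were not called (37.5%) held an octamer, shares that were not tested against each other. The 19 matches lay between 165 bases before and 39 bases after the start site, counted to the first base of the octamer. Of 5 MCM helicase genes with a window, 4 held an octamer. Mcm3, Mcm5, Mcm6, Mcm7 and Rfc3 each held more than 1, with pairs on opposite strands that overlap each other in Mcm5 and Mcm6. Of 15 mitosis genes with a window, 1 held an octamer (6.67%). The windows of Ccne1, Rrm2, Mcm10, Cdc45, Pola2 and Mcm2 held none of these letters, which says only that these octamers are not in those windows.

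**Figure D1:**
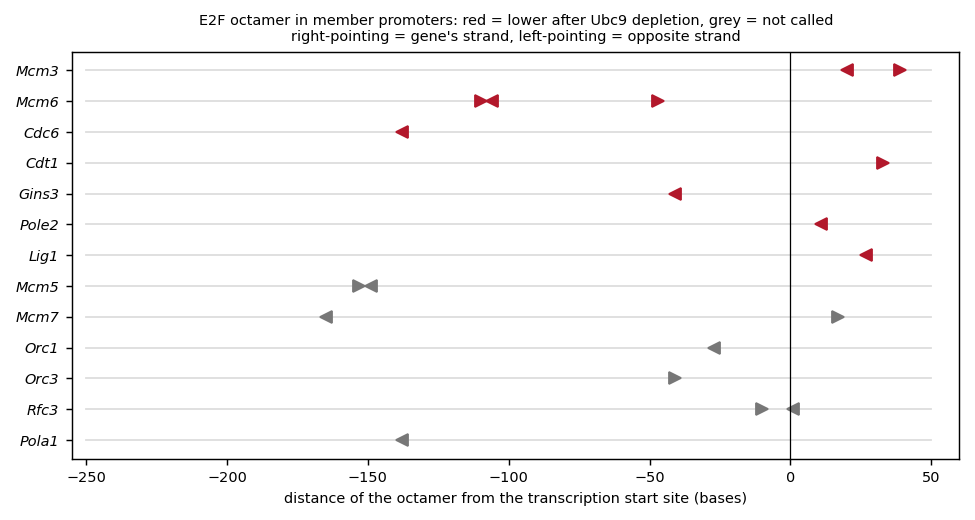
Distance of each E2F octamer from the transcription start site (bases, horizontal axis) in the 13 member promoters that held one, with grey lines for the searched window. Red marks are members lower after Ubc9 depletion and grey marks are members not called, and both lie on either side of the start site.

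Levels are given as CPM (read counts scaled to library size), and every adjusted p is a Benjamini-Hochberg value from edgeR's quasi-likelihood test, with log2 fold changes ± SE. Hist1h1c, Hist1h1d and Hist1h1e, which encode the 3 missing linker histones, had 0 counts in both H1 TKO libraries, against between 1.64 and 4.48 CPM in the H1 controls. All 7 embryonic stem cell markers were at 1 CPM or more in every group, with a summed level of 4511 to 4605 CPM in Ubc9-depleted cells and 4812 to 5061 CPM in their controls, and of 10124 to 10234 CPM in H1 TKO cells and 5103 to 5524 CPM in theirs. Summed over 7 fibroblast markers, levels were 30.4 to 32.0 CPM in Ubc9-depleted cells, against 12.1 to 12.4 CPM in their controls, with none of the markers at 0 in either. In the H1 cells that sum was 5.07 to 5.76 CPM in H1 TKO and 4.65 to 8.81 CPM in the controls, with Postn at 0 in H1 TKO and Dcn, Lum and Postn at 0 in the controls. Sums over 3 endoderm markers were 6.51 to 9.62 CPM in Ubc9-depleted cells and 3.19 to 3.75 CPM in their controls, with none at 0, and sums over 3 neural markers were 6.42 to 12.1 CPM in Ubc9-depleted cells and 6.51 to 6.79 CPM in their controls. The endoderm sums were 3.45 to 4.29 CPM in H1 TKO and 4.99 to 5.32 CPM in the H1 controls, and the neural sums 5.84 to 6.41 CPM in H1 TKO and 3.63 to 5.48 CPM in the H1 controls, where Neurog2 was at 0. Their part in the results was not tested. Libraries held 75972231 to 88410194 counts in Ubc9-depleted cells, 99269669 to 102780141 in their controls, 44441713 to 68445181 in H1 TKO and 52960206 to 56032400 in the H1 controls, and every member had at least 503 counts in every library.

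A pair of libraries stood apart. Ubc9-depleted library 1 had counts for 23462 genes, while the remaining Ubc9 libraries had them for 18584 to 19591. In it 36 of the 40 members were lower than in Ubc9-depleted library 2, with a median log2 ratio of -0.13 for members and -0.12 for other genes at their level. The H1 control libraries differed from each other with an SD of 0.52 in the log2 ratio of genes at the members' level, against 0.15 between the H1 TKO libraries.

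The first comparison asks what became of replication gene RNA in cells depleted of Ubc9. After Ubc9 depletion 19 of the 40 members fell and 0 rose, led by the cyclin E gene Ccne1, the ribonucleotide reductase subunit Rrm2, the licensing factor Cdc6, the fork factor Mcm10 and the polymerase alpha subunit Pola2. The changes were modest in size: the 19 log2 fold changes lay between -1.02 and -0.30. All members of the origin recognition complex and all 5 clamp loader subunits were among the 21 that did not pass. The edgeR test thus called 47.5% of members lower, against 15.0% of all 16499 genes tested and 26.6% of 7069 other genes whose mean level lay in the members' range of 16.2 to 515 CPM. Higher calls were made for 21.1% of all genes and 8.36% of genes at the members' level. At an unadjusted p under 0.05, 24 members were lower and 1, Orc5, was higher. The share of other genes at an unadjusted p is not given here. DESeq2 called 20 members lower and 0 higher, beside 26.9% and 4.91% of genes at their level. Scaling by library totals alone gave 12 lower and 2 higher members, with 12.2% of genes at their level called lower and 19.6% higher. The fit of all 8 libraries together gave 6 lower members, with 4.85% of genes at their level called lower.

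The members' median log2 fold change was -0.30, against 0.06 over all genes tested and -0.15 over other genes at their level. In 33 of 40 members both depleted libraries lay below both controls, as they did in 53.8% of genes at the members' level, while in 2 members both lay above and in 5 the groups overlapped. The median of members lay 0.13 to 0.15 below that of genes at their level in every alternative tried in this comparison. The count of lower members was less steady: leaving out Ubc9-depleted library 1 or 2 gave 15 or 30, and leaving out control library 1 or 2 gave 8 or 9. Genes at the members' level moved with it, with 22.8%, 51.8%, 9.38% and 8.12% called lower in the same order of libraries. Ccne1, Cdc45, Cdc6, Cdt1, Gins3, Pola2 and Rrm2 were called in all 4 of these fits.

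**Figure D2:**
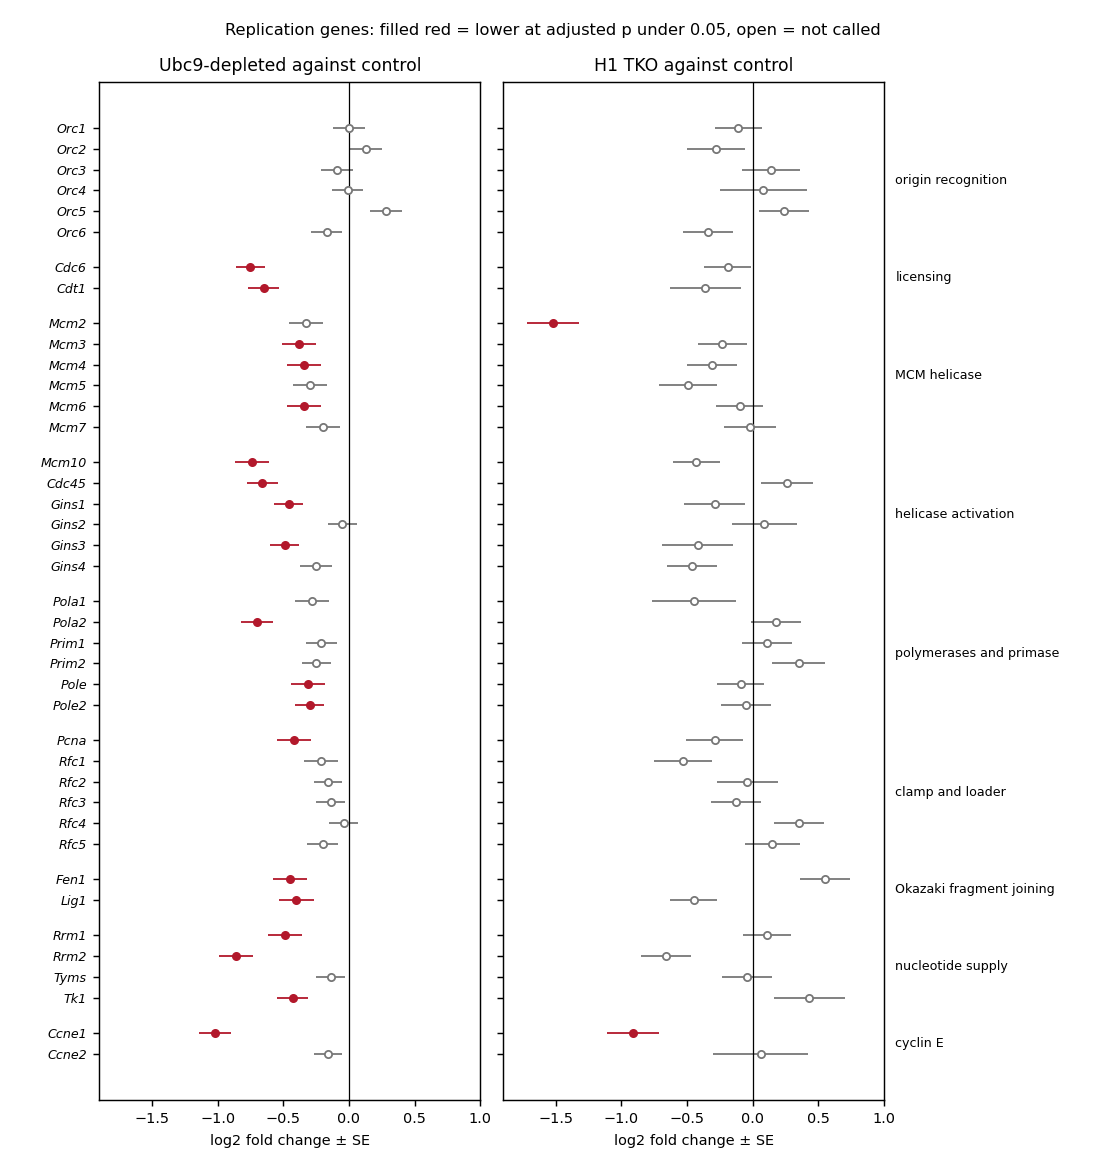
Log2 fold change ± SE of each member (horizontal axis), grouped by role, for Ubc9-depleted against control cells on the left and H1 TKO against control cells on the right (2 libraries per group). Filled red points passed an adjusted p of 0.05 and were lower, which holds for 19 members on the left and for Mcm2 and Ccne1 on the right.

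No origin recognition gene passed the test. Orc1 to Orc6 had log2 fold changes between -0.17 and 0.28, with a median of 0.00, and 0 of 6 passed the edgeR test (1 had an unadjusted p under 0.05, and DESeq2 called 0). Orc5 had 89.7 and 88.7 CPM in Ubc9-depleted cells, against 68.8 and 77.8 CPM in controls, a log2 fold change of 0.28 ± 0.12 (adjusted p = 0.059). Both depleted libraries were the higher ones for Orc5 and Orc2. With scaling by library totals alone these 2 genes were called higher, with log2 fold changes of 0.48 and 0.32. In that fit 19.6% of other genes at the members' level were called higher. With GC offsets Orc5 and Orc2 had log2 fold changes of -0.20 and -0.30, with no call. Orc1, the subunit whose level is known to follow the cell cycle, had 97.1 and 114 CPM in depleted cells and 104 and 107 CPM in controls, so the groups overlapped.

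Both factors that load the helicase fell, while 26.6% of other genes at the members' level were called lower. Cdc6, an ATPase that works with ORC, had 42.8 and 46.7 CPM in Ubc9-depleted cells, against 76.6 and 74.3 CPM in controls. The groups did not overlap, and depleted cells held 59.3% of the control level, a log2 fold change of -0.75 ± 0.11 (adjusted p = 6.1e-06). Cdt1, which brings the MCM ring to origins, had 63.2 and 71.0 CPM in depleted cells and 104 and 106 CPM in controls, a log2 fold change of -0.65 ± 0.12 (adjusted p = 8.6e-05).

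Of the 6 subunits of the MCM ring, Mcm3, Mcm4 and Mcm6 fell by small amounts. Among other genes at the members' level 26.6% were called lower. All 6 MCM genes had both depleted libraries below both controls, as did 53.8% of other genes at the members' level. Their log2 fold changes lay between -0.38 and -0.20, beside a median of -0.15 over genes at that level. The 3 that passed the test did so with adjusted p of 0.026, 0.044 and 0.037. These 3 calls were lost without either control library, and that of Mcm4 also without Ubc9-depleted library 1. All 3 were lost too with library totals alone and without the filter on low counts, and those of Mcm4 and Mcm6 with RLE scaling. Mcm2 had 347 and 434 CPM in Ubc9-depleted cells, against 497 and 483 CPM in controls, and just missed the threshold with a log2 fold change of -0.33 ± 0.13 (adjusted p = 0.057). Mcm5 and Mcm7 had log2 fold changes of -0.30 and -0.20. Per kilobase of transcript, the MCM genes stood at 78.7 to 148 CPM in depleted cells and 97.0 to 192 CPM in controls, against 25.2 to 88.9 and 25.4 to 100 CPM per kilobase for the ORC genes.

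Helicase activation genes were lower in 4 of 6 cases, beside 26.6% of other genes at the members' level. Mcm10, which helps the assembled helicase to fire, had 183 and 211 CPM in Ubc9-depleted cells, against 317 and 344 CPM in controls. Its groups did not overlap, and it fell by 0.74 ± 0.13 on the log2 scale (adjusted p = 4.6e-05; adjusted p = 0.080 without Ubc9 control library 2). Cdc45, a subunit of the active helicase, had 47.5 and 52.4 CPM in depleted cells and 75.1 and 83.1 CPM in controls, a log2 fold change of -0.66 ± 0.12 (adjusted p = 5.1e-05). The 4 GINS subunits form 1 complex with it, but they differed from one another in their values. Gins1 and Gins3 fell by 0.46 ± 0.11 and 0.49 ± 0.11 (the Gins1 call was lost without Ubc9 control library 1), Gins4 had a log2 fold change of -0.25 ± 0.12, and Gins2 had 34.0 and 37.7 CPM in depleted cells and 38.3 and 35.6 CPM in controls, which overlap. The Gins3 call was lost with library totals alone. Differences between subunits were not tested.

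Among genes of the polymerases and primase 3 of 6 fell, beside 26.6% of other genes at the members' level called lower. Pola2, the B subunit of polymerase alpha, had 29.9 and 35.6 CPM in Ubc9-depleted cells, against 53.7 and 52.5 CPM in controls. It fell by 0.70 ± 0.12 on the log2 scale (adjusted p = 2.2e-05) with no overlap. The catalytic subunit Pola1 and the primase subunits Prim1 and Prim2 had log2 fold changes of -0.28, -0.21 and -0.25 that did not pass, while the polymerase epsilon genes Pole and Pole2 passed narrowly with -0.31 and -0.30. All 6 lay below both controls in both depleted libraries, as did 53.8% of other genes at the members' level. The Pole and Pole2 calls were lost without Ubc9-depleted library 1 and without either control library. Both were also lost with library totals alone, and that of Pole2 in DESeq2. The Pole call was lost too with RLE scaling, with GC offsets and without the filter on low counts.

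Pcna, the sliding clamp, had 168 and 183 CPM in Ubc9-depleted cells and 248 and 223 CPM in controls. It fell by 0.42 ± 0.13 on the log2 scale (adjusted p = 0.0096), a call that was lost without either control library. Rfc1 to Rfc5, the subunits that load the clamp, had log2 fold changes between -0.21 and -0.04, and 0 of them passed. Both genes that process Okazaki fragments fell, the flap nuclease Fen1 by 0.45 ± 0.13 and the ligase Lig1 by 0.40 ± 0.13 on the log2 scale. Of other genes at the members' level 26.6% were called lower. Fen1 had 63.9 and 82.7 CPM in depleted cells, against 101 and 99.3 CPM in controls. The depleted libraries thus differed more from each other than the controls did, and the Fen1 call was lost without Ubc9-depleted library 1 or either control library. The Lig1 call was lost without either control library, and also without the filter on low counts.

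Nucleotide supply genes were lower in 3 of 4 cases, beside 26.6% of other genes at the members' level. Rrm2, the small subunit of ribonucleotide reductase, had 118 and 130 CPM in Ubc9-depleted cells, against 216 and 233 CPM in controls. Depleted cells held 55.2% of the control level, a log2 fold change of -0.86 ± 0.13 (adjusted p = 3.4e-06). The large subunit Rrm1 fell by 0.49 ± 0.13 and the thymidine kinase Tk1 by 0.43 ± 0.12, while thymidylate synthase, Tyms, had a log2 fold change of -0.14 ± 0.11. The Rrm1 call was lost without either control library. That of Tk1 was lost without Ubc9-depleted library 1, without control library 1, in DESeq2 and with library totals alone.

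Of the cyclin E genes, which activate Cdk2 at the entry to S phase, only Ccne1 passed. Ccne1 had 64.9 and 68.5 CPM in Ubc9-depleted cells, against 133 and 137 CPM in controls. This was the largest change of any member in this comparison, to 49.4% of the control level, a log2 fold change of -1.02 ± 0.12 (adjusted p = 7.5e-08). Ccne2 had 15.3 and 15.2 CPM in depleted cells and 16.3 and 17.8 CPM in controls, a log2 fold change of -0.16 ± 0.11 (adjusted p = 0.25) at a level, per kilobase, of 5.07 CPM in depleted cells and 5.67 CPM in controls, the lowest of the 40.

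**Figure D3:**
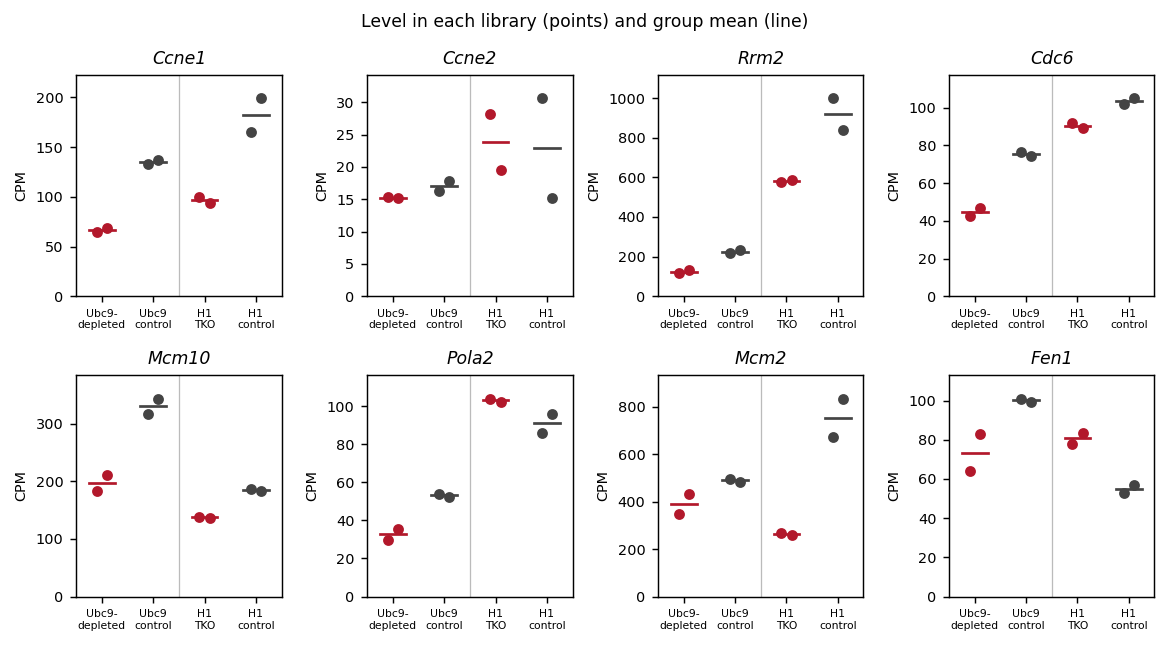
Level in CPM (vertical axis, from 0) of 8 members in each library (points) with the group mean (line), Ubc9-depleted left of its control and H1 TKO left of its control. Ccne1 lies lower in both Ubc9-depleted and H1 TKO cells than in their controls, at 64.9 to 68.5 against 133 to 137 CPM and at 94.2 to 100 against 165 to 199 CPM, while Mcm2 is the member furthest below its controls in H1 TKO.

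The second comparison asks what became of the same genes when 3 linker histones were missing. In H1 TKO cells 2 of the 40 members fell, Mcm2 and Ccne1, and 0 rose. Lower calls were made for 8.43% of all 14800 genes tested and 7.88% of 7764 other genes in the members' range of 13.0 to 751 CPM, so the members' share is no higher than the background. Higher calls were made for 8.59% of all genes and 6.66% of genes at that level. At an unadjusted p under 0.05, 7 members were lower and 1, Fen1, was higher in the edgeR test. DESeq2 called 3 members lower and 0 higher, beside 10.9% and 8.93% of genes at their level. The members' median log2 fold change was -0.10, against -0.02 over all genes and -0.04 over genes at their level. Both H1 TKO libraries lay below both controls in 16 members, against 30.5% of genes at that level, above them in 7, and overlapped them in 17.

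Mcm2 (chr6:88883474-88898780, minus strand, GRCm38), a subunit of the MCM ring, had 267 and 261 CPM in H1 TKO cells, against 675 and 835 CPM in controls. The groups lay far apart: H1 TKO cells held 35.0% of the control level, a log2 fold change of -1.52 ± 0.20 (adjusted p = 0.0032), and the call was made in all 4 fits that left out a library. The other 5 MCM genes had log2 fold changes between -0.49 and -0.02, and 0 of them passed the edgeR test. Per kilobase Mcm2 stood at 78.3 CPM in H1 TKO cells and 224 CPM in controls, which made it the lowest of the 6 MCM genes in H1 TKO cells and the second highest, after Mcm6 at 234 CPM, in controls. The promoter window of Mcm2 is shown because this is the member with the largest change in the H1 comparison, and it held no E2F octamer of those searched.
Mcm2, chr6:88898731-88899030, minus strand: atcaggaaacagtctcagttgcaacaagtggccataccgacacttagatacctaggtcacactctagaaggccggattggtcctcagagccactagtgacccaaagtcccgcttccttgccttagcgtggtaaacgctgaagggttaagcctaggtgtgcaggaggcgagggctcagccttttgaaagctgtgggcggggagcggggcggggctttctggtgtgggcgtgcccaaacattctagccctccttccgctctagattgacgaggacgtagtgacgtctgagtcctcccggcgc

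Mcm2 lies on a chromosome whose genes were low as a whole in H1 TKO cells. Among other genes at the members' level, the 363 on chromosome 6 had a median log2 fold change of -0.47, with 34.2% of them called lower, and the 454 on chromosome 8 had a median of -0.57, with 28.2% called lower. Medians of the other 18 chromosomes lay between -0.11 and 0.20. In the Ubc9 comparison the medians of the autosomes and X, 20 chromosomes in all, lay between -0.20 and -0.10, and the 4 genes on Y had a median of 0.06. Mcm2 was 1.04 below the median of its chromosome on the log2 scale, and 53 of the 363 other chromosome 6 genes were lower still. Its change and that of its chromosome cannot be told apart with these counts. The 6 members on chromosome 8 are Mcm5, Cdt1, Gins2, Gins3, Gins4 and Orc6. They had a median log2 fold change of -0.39, with a range from -0.49 to 0.09, and 0 of them passed the edgeR test (1 had an unadjusted p under 0.05, and DESeq2 called 0). Of the 33 members elsewhere, 1 was lower, Ccne1.

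**Figure D4:**
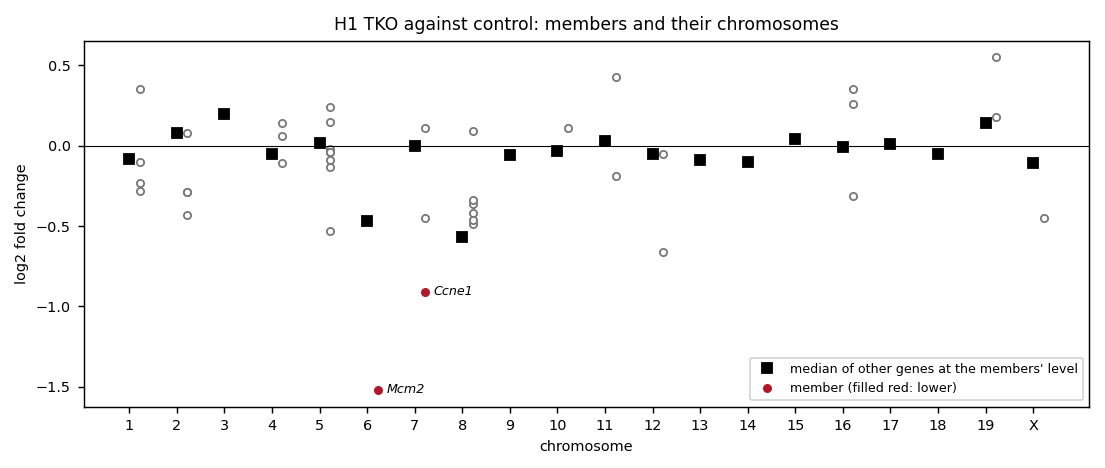
Log2 fold change in H1 TKO against control cells (vertical axis) by chromosome (horizontal axis), with squares for the median of other genes at the members' level and circles for members. Squares lie at -0.47 for chromosome 6 and -0.57 for chromosome 8, with the other 18 between -0.11 and 0.20, and Ccne1 lies far below the square of chromosome 7.

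Ccne1 (chr7:38097984-38107534, minus strand, GRCm38) had 100 and 94.2 CPM in H1 TKO cells, against 165 and 199 CPM in controls. It fell to 53.4% of the control level, a log2 fold change of -0.91 ± 0.20 (adjusted p = 0.021). The groups did not overlap, but the call was lost without either H1 TKO library. Ccne1 was the 1 member called lower in both comparisons, which share no control libraries, and the test of the difference between the comparisons gave -0.13 ± 0.22 (adjusted p = 0.74). Ccne2 had 28.2 and 19.5 CPM in H1 TKO cells and 30.6 and 15.2 CPM in controls, with overlap and a log2 fold change of 0.06 ± 0.36. The promoter window of Ccne1 is shown as that of the member called in both comparisons, and it too held none of the octamers searched.
Ccne1, chr7:38107441-38107740, minus strand: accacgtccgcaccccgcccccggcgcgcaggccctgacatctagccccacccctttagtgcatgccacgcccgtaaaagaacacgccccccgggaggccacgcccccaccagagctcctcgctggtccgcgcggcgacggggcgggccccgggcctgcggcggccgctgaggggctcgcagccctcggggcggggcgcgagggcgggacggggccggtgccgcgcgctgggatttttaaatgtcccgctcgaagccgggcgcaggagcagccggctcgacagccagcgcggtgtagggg

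Among the other members in H1 TKO cells, Rrm2 came closest to the threshold. Rrm2 had 579 and 585 CPM in H1 TKO cells, against 999 and 840 CPM in controls, a log2 fold change of -0.66 ± 0.19 (adjusted p = 0.054). The groups did not overlap, and DESeq2 called it lower. Pcna had 470 and 435 CPM in H1 TKO cells and 650 and 456 CPM in controls, which overlap. Fen1 had the highest log2 fold change of the members, 0.55 ± 0.19 (adjusted p = 0.093), with 78.0 and 83.3 CPM in H1 TKO cells against 52.8 and 57.0 CPM in controls. Over both comparisons, 14 of 40 members had both libraries below both controls each time, as did 19.4% of 6296 other genes at the members' level in both. The 14 were Mcm2, Mcm3, Mcm4, Mcm5, Mcm6, Mcm10, Cdc6, Gins3, Gins4, Rfc1, Rfc3, Rrm2, Ccne1 and Lig1. Of these, Mcm2, Mcm5, Gins3 and Gins4 lie on chromosomes 6 and 8, whose genes were low as a whole in H1 TKO cells. In H1 TKO 5 of 7 members on these chromosomes lay below both controls in both libraries, against 11 of 33 elsewhere. Among other genes at the members' level on all chromosomes 30.5% did so, a share not split by chromosome here. The contrast was not tested.

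**Figure D5:**
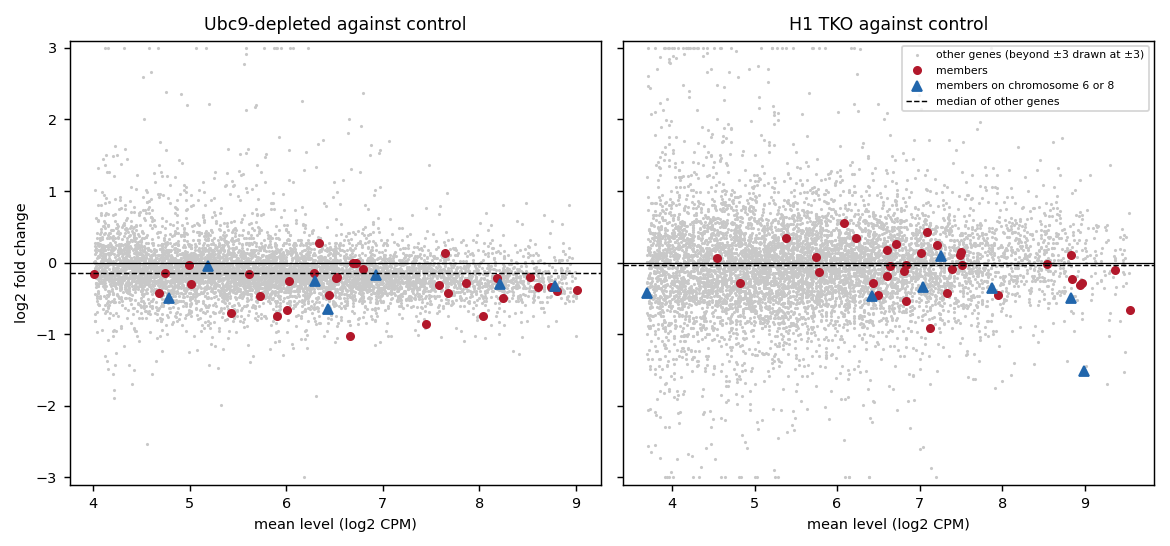
Log2 fold change (vertical axis) against mean level in log2 CPM (horizontal axis) for members and for other genes at their level (grey, values beyond 3 drawn at the edge), Ubc9-depleted against control on the left and H1 TKO against control on the right. Most members lie below the dashed median of other genes on the left (-0.15), while on the right they spread around it (-0.04), with the 7 members on chromosomes 6 and 8 as blue triangles.

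Whether a member responded differently to the loss of Ubc9 and of the linker histones was tested in 1 fit of all 8 libraries. The library kit differs between the comparisons and cannot be told apart from that difference. Of the 40 members 4 passed, against 14.5% of all 16974 genes tested, so the share is below the background. Mcm2 was less reduced after Ubc9 depletion than in H1 TKO, with a difference of 1.17 ± 0.25 between log2 fold changes (Ubc9 minus H1, adjusted p = 0.011). Fen1, Cdc45 and Pola2 were lower after Ubc9 depletion relative to H1 TKO, by differences of -1.02 ± 0.24, -0.94 ± 0.23 and -0.90 ± 0.22, with adjusted p of 0.019, 0.021 and 0.023. In H1 TKO cells Cdc45 had 112 and 116 CPM, against 85.5 and 106 CPM in controls, and Pola2 had 104 and 102 CPM, against 85.8 and 96.1 CPM in controls. Both genes were thus above their controls there, without passing the test. The calls were lost in 3 of 8 fits that left out a library for Mcm2, in 4 for Fen1 and in 5 each for Cdc45 and Pola2. With library totals alone the Pola2 call was also lost, at a difference of -0.61, and the members' median difference was 0.12, against -0.17 with TMM, while the median of all genes was 0.39, against 0.09 with TMM.

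A list of 43 further replication genes was examined. After Ubc9 depletion 19 of them fell (44.2%) and 1 rose, with a median log2 fold change of -0.28, beside 15.0% of all genes and 26.6% of genes at the members' level called lower. At an unadjusted p under 0.05, 25 were lower, a threshold at which no share of other genes is given here. DESeq2 called 22 lower, beside 26.9% of genes at the members' level. Cdc25a, the phosphatase that activates Cdk2, had 64.0 and 68.3 CPM in Ubc9-depleted cells, against 112 and 127 CPM in controls, and fell by 0.85 ± 0.12 on the log2 scale. The nuclease and helicase Dna2 fell by 0.81 ± 0.12, the ribonuclease H2 subunit Rnaseh2b by 0.63 ± 0.11 and the polymerase delta subunit Pold3 by 0.59 ± 0.12. The member of that list that rose was Rrm2b, the p53-inducible counterpart of Rrm2, with 48.5 and 45.6 CPM in depleted cells, against 28.6 and 30.8 CPM in controls. Its log2 fold change was 0.66 ± 0.11 (adjusted p = 2.7e-05), while Rrm2 itself fell.

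In H1 TKO cells 5 of these 43 genes fell (11.6%) and 1 rose, beside 8.43% of all genes called lower, so the share is near the background. Pole4, a small polymerase epsilon subunit on chromosome 6, had 46.7 and 55.2 CPM in H1 TKO cells, against 204 and 181 CPM in controls, a log2 fold change of -1.92 ± 0.20. Dna2 fell by 1.23 ± 0.23, Rnaseh2a, on chromosome 8, by 1.06 ± 0.20, the fork protection factor Tipin by 0.82 ± 0.21 and Pold3 by 0.80 ± 0.18. Ticrr, which helps Cdc45 to load, rose by 0.75 ± 0.18, with 341 and 319 CPM in H1 TKO cells against 200 and 192 CPM in controls.

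Among 20 genes of the E2F and RB pathway, 6 fell and 4 rose after Ubc9 depletion. DESeq2 called 5 lower and 2 higher, beside 26.9% and 4.91% of genes at the replication members' level. In the edgeR test, beside the 6 of 20 lower genes, 15.0% of all genes and 26.6% of genes at the replication members' level were called lower. Beside the 4 of 20 higher genes, 21.1% of all genes and 8.36% of genes at that level were called higher. In each direction the share was near the larger of these backgrounds and above the smaller, and it was not tested against either. The D-type cyclin Ccnd3 fell by 0.78 ± 0.12, the repressor E2f8 by 0.71 ± 0.11, the activator E2f3 by 0.61 ± 0.11 and the kinase inhibitor Cdkn1a by 0.61 ± 0.12 on the log2 scale. E2f1 and E2f2, both activators, complete the 6. Rb1, which restrains E2F factors, had 26.6 and 28.3 CPM in Ubc9-depleted cells, against 16.6 and 17.5 CPM in controls, and rose by 0.69 ± 0.11, its relative Rbl2 by 0.30 ± 0.11 and E2f5 by 0.29 ± 0.11. Ccnd2 rose by 2.57 ± 0.47 at a low level, with 3.58 and 2.41 CPM in depleted cells against 0.401 and 0.608 CPM in controls. In H1 TKO cells 1 of the 20 fell, E2f8, with a log2 fold change of -0.85 ± 0.21 (adjusted p = 0.032). Among all genes 8.43% were called lower there.

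Mitosis genes, shown beside the replication genes because they act in a later phase of the cycle, also included many lower genes after Ubc9 depletion. Of 18 genes, 12 fell and 0 rose in the edgeR test (13 lower and 0 higher at an unadjusted p under 0.05, and DESeq2 called 14 and 0), with a median log2 fold change of -0.47, and all 18 had both depleted libraries below both controls. Among genes at the replication members' level 26.6% were called lower in the edgeR test and 26.9% in DESeq2, and 53.8% lay below both controls. In H1 TKO cells 0 fell and 1 rose, the kinase gene Aurka, beside 8.43% of all genes called lower and 8.59% called higher. There 2 were lower at an unadjusted p under 0.05. DESeq2 called 1 lower and 1 higher, beside 10.9% and 8.93% of genes at the replication members' level. Differences between the lists were not tested.

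Of the 40 members, 17 have exons that overlap another annotated gene, Cdc45, Fen1, Lig1, Pole, Pole2 and Tk1 among the 19 that fell after Ubc9 depletion. Whether the counting used strand was not given in the sources used here, so reads from such neighbours cannot be told apart from those of the member.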

How the data were processed

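Per the labels, polyA RNA went into ScriptSeq v2 libraries (Ubc9 cells) or Lexogen SENSE V2 libraries (H1 cells). The authors deposited raw read counts per gene, in 1 table per comparison. The submitters' processing notes name cutadapt, STAR, HTSeq, DESeq2 and mm10. Their roles and versions, the annotation and the strand of counting were not given in the sources used here. Gene symbols were matched to GENCODE M21 (23376 by name, 670 by an older name, 375 not matched) for coordinates, transcript length and GC content.

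Each comparison was fitted alone on the whole table with edgeR 4.0.16 in R 4.3.3: genes were kept by filterByExpr (count of at least 10, total of at least 15), scaled by TMM and tested by quasi-likelihood F tests, and p-values were adjusted by Benjamini-Hochberg over all genes tested (threshold 0.05). CPM uses TMM-scaled library totals. The biological coefficient of variation was 0.255 in the Ubc9 comparison, 0.239 in the H1 comparison and 0.272 in the joint fit. The script was tested on simulated data, with changes put into random genes of all levels. It recovered 76% of 2-fold changes at the settings of the Ubc9 comparison and 27% at those of the H1 comparison. Of its calls 7.88% and 6.14% were false. The members and gene lists were chosen with earlier results of these data known, so no test was made over a list. Values in every library are given for up to 5 members per comparison and direction with the largest called changes. They are also given for Mcm2, Ccne1, Ccne2, Pcna and Rrm2, and for members that passed the test of the difference. From the lists of other replication and of E2F and RB genes, up to 4 per direction and comparison were chosen. Some of these have values in every library and the rest log2 fold changes alone. Orc1, Orc5, Cdt1, Gins2, Pold3 in H1 TKO, E2f1, E2f2 and Aurka were added after their values were seen. Alternatives left out each library, left out chromosomes 6 and 8, added a replicate block or loess GC offsets (span 0.5), fitted all 8 libraries together, used no filter, scaled by totals alone or RLE, or used DESeq2 1.42.0. Counting error is small at this depth and was not given as intervals. The check of the gene targeted in the Ubc9-depleted cells is not reported here.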

Additional observations from a re-analysis of the deposited data

Results flagged for a closer look

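In 4 members the effect of Ubc9 depletion and that of the H1 TKO differed by the test of the difference itself, as Ubc9 minus H1 on the log2 scale. Mcm2 had a difference of 1.17, Fen1 of -1.02, Cdc45 of -0.94 and Pola2 of -0.90. With library totals alone the Pola2 difference was -0.61 and no longer passed. The library kit differs between the comparisons, and its part in these differences was not tested. Mcm2 lies on chromosome 6, where other genes at the members' level had a median log2 fold change of -0.47 in H1 TKO cells.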

How the results depend on the processing

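Scaling moved the members with all genes. With library totals alone the Ubc9 comparison gave 12 lower and 2 higher members at a median of -0.11, while the median of all genes was 0.25. Of genes at the members' level 12.2% were called lower there and 19.6% higher. With GC offsets the members' median was -0.72 and that of all genes -0.38, and with DESeq2 the members' median was -0.36. All 8 libraries in 1 fit gave 6 lower members, Ccne1, Cdc45, Cdc6, Mcm10, Pola2 and Rrm2, which were called in every other setting tried that kept all libraries. Replicate numbers were not treated as pairs in the main fits, and whether same-numbered libraries were handled together is not known. The correlation of same-numbered deviations was 0.00 in the Ubc9 and 0.16 in the H1 comparison. With 2 pairs each it cannot settle this. With the replicate block 21 members were lower and 1 higher after Ubc9 depletion, 3 and 0 in H1 TKO, and 4 and 1 in the test of the difference. In the same order, 29.0%, 10.6% and 10.5% of genes at the members' level were called lower there, and 8.54%, 9.02% and 6.24% higher. Leaving out each library gave 8 to 30 lower members after Ubc9 depletion with medians from -0.42 to -0.23, and in H1 TKO 1 to 15 lower and 0 to 7 higher, with the high counts without H1 control library 1 or 2, where 27.2% or 35.0% of genes at the members' level were called lower and 26.4% or 31.3% higher. A lone library was assumed to vary like the other group. In H1 TKO, totals alone gave a median of -0.19. GC offsets gave 10 lower and 1 higher with a median of -0.24, with 24.3% of genes at that level called lower and 13.7% higher. All 8 libraries in 1 fit gave 1 higher, with 12.8% of genes at that level called higher. Without chromosomes 6 and 8, 2 of the 33 members elsewhere were lower, with 5.37% of other genes at their level called lower. Orc4 turned to -0.35 without H1 control library 2 and was 0.69 without H1 control library 1. In the test of the difference DESeq2 called 7 lower, with 14.8% of genes at the members' level called lower. Leaving out a library there gave members' medians from -0.30 to -0.08, beside -0.23 to -0.04 for genes at their level. The cause of these shifts was not tested. With 2 libraries per group, small changes such as those of the MCM genes lie near what could be called.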
